A study of Mus musculus with 11 samples.

Results

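The levels of 9 long non-coding RNA (lncRNA) genes were compared across heat and YAP/TAZ knockdown in mouse melanoma cells: the nuclear lncRNAs Neat1 and Malat1, and the small nucleolar RNA (snoRNA) host genes Gas5, Zfas1, Snhg1, Snhg3, Snhg6, Snhg8 and Snhg12. They were listed by name and found through their Ensembl identifiers, and all 9 were among the 54104 genes with such an identifier in the deposited table. The cells were B16-OVA, a melanoma line of C57BL/6J mice that expresses ovalbumin. All groups carried a siRNA for 48 h before the heat step, either a control siRNA or pooled siRNAs that target YAP and TAZ, the transcriptional co-activators encoded by Yap1 and Wwtr1. The 4 groups were heated YAP/TAZ siRNA cells (3 libraries), unheated YAP/TAZ siRNA cells (3), heated control siRNA cells (2, replicates 1 and 3) and unheated control siRNA cells (3). Heated cells spent 1 h at 45 °C and then 6 h at 37 °C before RNA was taken. The libraries came from 1 cell line, and the labels do not say whether each was its own culture, so the p-values speak only of the spread between these libraries, part or all of which may be technical.

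Neat1 is the RNA scaffold of paraspeckles, nuclear bodies that hold RNA-binding proteins and retained RNAs. Malat1 is a long, abundant RNA of nuclear speckles, where splicing factors are stored. The other genes are known mainly for their introns: when the host RNA is spliced, the excised introns are trimmed into snoRNAs, which guide the methylation or pseudouridylation of ribosomal and other RNAs. The spliced host RNAs carry no long reading frame, several of them start with a pyrimidine tract like that of ribosomal protein mRNAs, and several, Gas5 among them, are degraded by nonsense-mediated decay when they are translated.

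Levels are FPKM, fragments per kilobase of transcript and of mapped fragments (in mega), as the authors deposited them. Differences are on the log2(FPKM + 1) scale, which understates the change of low genes, with their standard error (SE). They come from 1 limma fit over all 11 libraries. A gene is called when its Benjamini-Hochberg adjusted p over the 12626 genes tested is under 0.05. The libraries held 30.5 to 43.9 M fragments (M, mega) by the smallest steps between low values. The heated control siRNA libraries stood apart in listing 23173 and 23242 entries above 0, against 20000 to 21662 in the other 9. All 8 melanocyte markers passed the filter on low values, with a summed level of 6287 to 8277 FPKM. Of 31 markers of fibroblasts, macrophages, lymphocytes, endothelial cells and keratinocytes, 5 passed it. In heated control siRNA cells the summed macrophage markers reached 6.29 to 6.73 FPKM, against 1.57 to 3.42 FPKM in the other groups, the lymphocyte markers 1.89 to 1.92 FPKM, against 0.0437 to 0.365 FPKM, and the endothelial markers 1.28 to 1.52 FPKM, against 0.103 to 0.293 FPKM; their part in the results was not tested. With YAP/TAZ siRNA, Yap1 fell to 2.77 ± 0.24 FPKM in unheated cells, against 9.56 ± 5.31 FPKM with control siRNA, and Wwtr1 fell to 1.77 ± 0.10 FPKM, against 6.62 ± 1.44 FPKM (SD, n = 3 each). The heat shock gene Hspb1 rose with heat in both siRNA arms, to 175 ± 60.6 FPKM in heated YAP/TAZ siRNA cells (SD, n = 3) and 3309 ± 17.6 FPKM in heated control siRNA cells (SD, n = 2), against 11.3 ± 2.04 and 14.7 ± 2.38 FPKM in the unheated cells of the same arms (SD, n = 3 each).

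All 9 genes passed the filter. Averaged over the 11 libraries, Snhg6 (22.5 FPKM), Gas5 (22.0), Malat1 (15.8), Snhg1 (13.5) and Zfas1 (11.7) stood above Snhg8 (7.53), Neat1 (5.60), Snhg12 (5.24) and Snhg3 (5.23). These FPKM averages are per length, but they depend on which transcripts the authors' software counted to each gene. The genes differed in how far they moved: the highest library was 35.4 times the lowest for Malat1, but 1.53 times for Zfas1 and 1.65 times for Gas5.

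**Figure D1:**
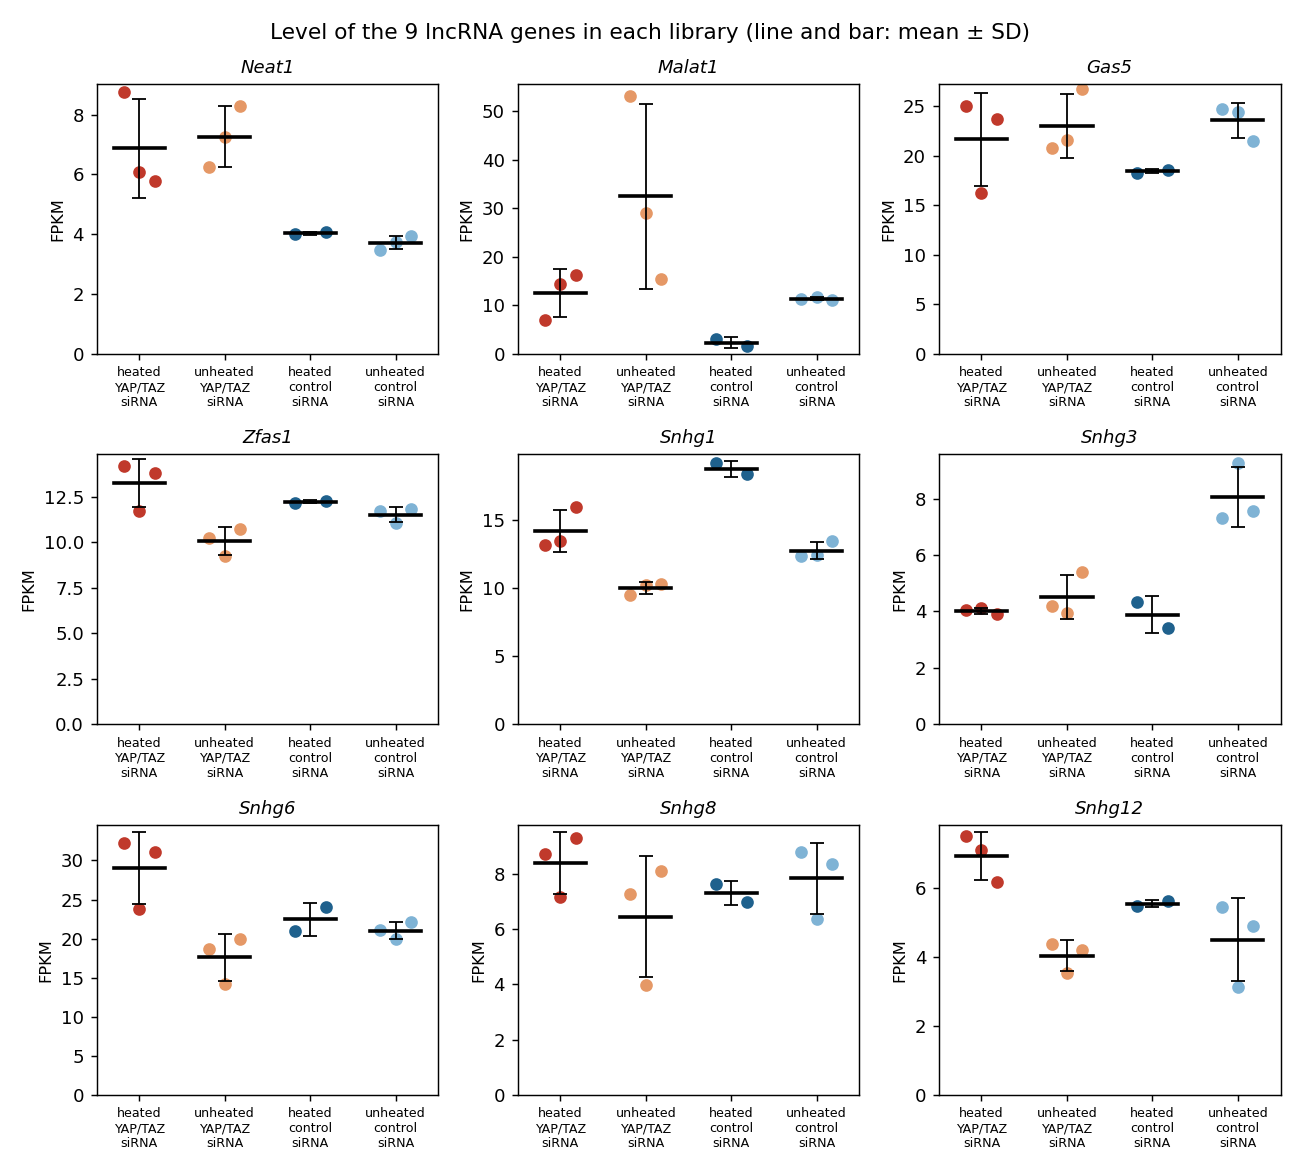
FPKM (vertical axis, from 0) of each of the 9 genes in the 11 libraries, by group; points are libraries, and the line and bar give the mean ± SD. Neat1 lies higher in all 6 YAP/TAZ siRNA libraries (5.77 to 8.78 FPKM) than in the 5 control siRNA libraries (3.49 to 4.07 FPKM), and Snhg3 is highest in unheated control siRNA cells (7.32 to 9.27 FPKM).

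Counted over the 9 genes, heat under YAP/TAZ siRNA raised 4 (Zfas1, Snhg1, Snhg6 and Snhg12) and lowered 1 (Malat1), where 50.3% of all genes tested were called, 18.6% higher and 31.7% lower. Heat under control siRNA raised 1 (Snhg1) and lowered 2 (Malat1 and Snhg3), where 49.2% of all genes were called, 12.4% higher and 36.9% lower. The heat response differed between the siRNAs for 2 (Snhg3 and Snhg6, both more positive under YAP/TAZ siRNA), where 37.9% of all genes were called, 24.6% more positive and 13.4% more negative. YAP/TAZ siRNA without heat raised 2 (Neat1 and Malat1) and lowered 2 (Snhg1 and Snhg3), where 49.0% were called, 27.1% higher and 21.9% lower. After heat it raised 2 (Neat1 and Malat1) and lowered 1 (Snhg1), where 54.3% were called, 36.3% higher and 17.9% lower. Taken in either direction, 2 to 5 of the 9 genes were called, a share near or below that of all genes in each comparison, so these counts are no result about the group. The median log2 difference of the 9 genes was 0.36 for heat under YAP/TAZ siRNA and 0.08 for heat under control siRNA, beside −0.09 and −0.16 over all genes tested. The balance of calls over all genes moved with the scaling: under median-of-ratios scaling 3064 genes were called higher and 2938 lower with heat under YAP/TAZ siRNA (2347 and 3999 without it), 2517 higher and 3092 lower with heat under control siRNA (1560 and 4654), and 3357 higher and 3196 lower with YAP/TAZ siRNA after heat (4589 and 2266). The medians over all genes then became −0.003, −0.02 and 0.02, against −0.09, −0.16 and 0.13. With all libraries scaled to 1 total of FPKM, the balance with heat moved the other way. There 1413 genes were higher and 5829 lower under YAP/TAZ siRNA (median −0.22), and 1316 and 5381 under control siRNA (median −0.22). With YAP/TAZ siRNA after heat, 3741 were higher and 2619 lower (median 0.06).

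**Figure D2:**
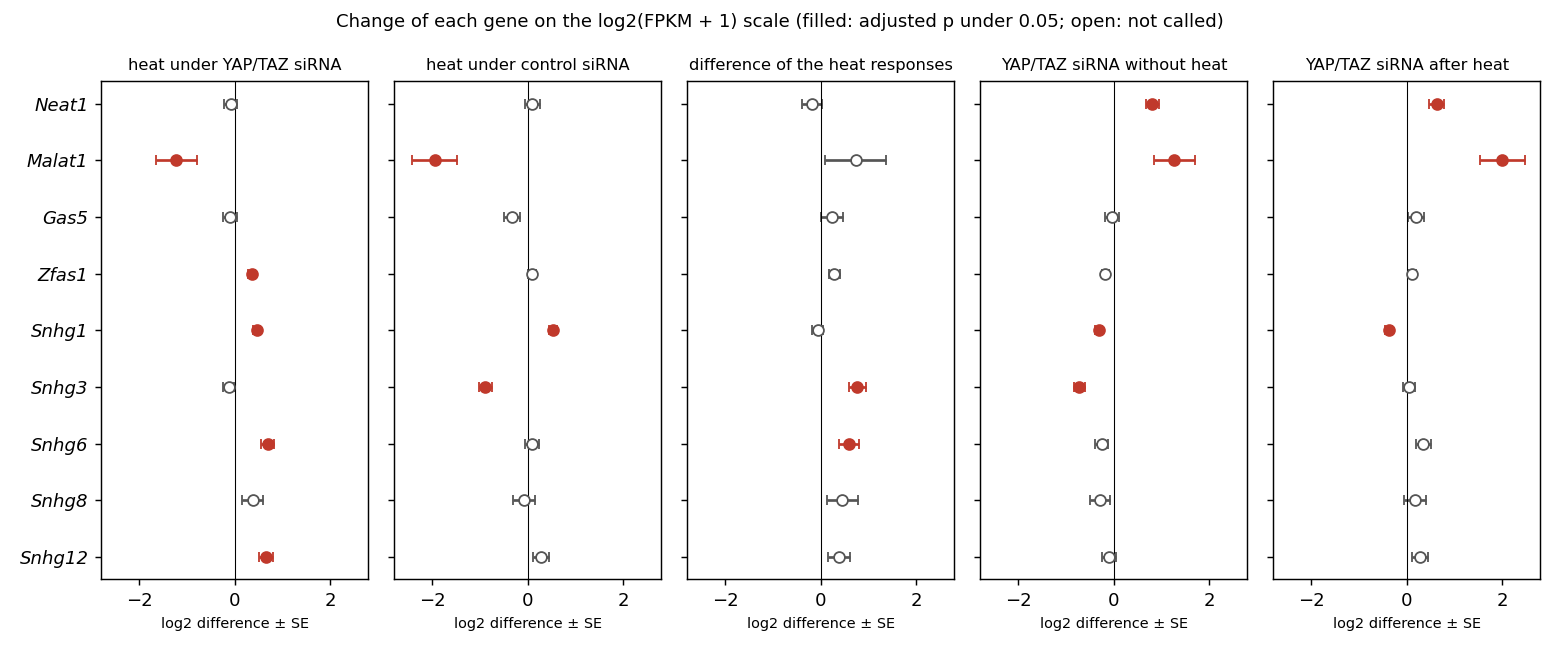
Log2 difference ± SE (horizontal axis, log2(FPKM + 1) scale) of each gene in the 5 comparisons; filled points have an adjusted p under 0.05 and open points do not. Malat1 has the widest bars (SE 0.42 to 0.64), and Snhg1 changes in the same direction with heat under both siRNAs (0.46 and 0.53).

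Neat1 (ENSMUSG00000092274, lincRNA, GRCm38 chr19:5824708-5845478, minus strand) was higher with YAP/TAZ siRNA whether or not the cells were heated. Its level was 8.78, 6.07 and 5.77 FPKM in heated YAP/TAZ siRNA libraries and 6.25, 7.26 and 8.28 FPKM in unheated ones. With control siRNA it was 3.99 and 4.07 FPKM in heated libraries and 3.49, 3.73 and 3.94 FPKM in unheated ones. No YAP/TAZ siRNA library overlapped the control siRNA libraries, while the heated and unheated YAP/TAZ siRNA libraries overlapped each other. The log2 difference between siRNAs was 0.80 ± 0.14 without heat (limma adjusted p = 0.0010) and 0.62 ± 0.15 after heat (adjusted p = 0.0072). In such bulk libraries, fewer cells with an RNA and less of it per cell cannot be told apart. Heat itself gave −0.08 ± 0.14 under YAP/TAZ siRNA (adjusted p = 0.64) and 0.09 ± 0.15 under control siRNA (adjusted p = 0.64), neither of them called.

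Malat1 (ENSMUSG00000092341, lincRNA, chr19:5795690-5802672, minus strand, 22035 bases from Neat1 on the same strand) was lower after heat and higher with YAP/TAZ siRNA. It had 6.89, 14.5 and 16.2 FPKM in heated YAP/TAZ siRNA libraries and 53.1, 28.9 and 15.4 FPKM in unheated ones. In control siRNA cells it had 3.10 and 1.499 FPKM after heat and 11.3, 11.7 and 11.1 FPKM without heat. The heated and unheated control siRNA libraries were far apart, while the 2 YAP/TAZ siRNA groups overlapped and the highest library of the unheated one was 3.44 times its lowest.

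The fall of Malat1 with heat was −1.22 ± 0.42 under YAP/TAZ siRNA (limma adjusted p = 0.038) and −1.95 ± 0.47 under control siRNA (adjusted p = 0.0075), and the difference between these responses, 0.73 ± 0.64, was not called (adjusted p = 0.40). Its rise with YAP/TAZ siRNA was 1.27 ± 0.42 without heat (adjusted p = 0.033) and 2.00 ± 0.47 after heat (adjusted p = 0.0060). Without replicate 3 of the heated control siRNA cells, the heat change under control siRNA (−1.59, adjusted p = 0.070) and the siRNA change after heat (1.64, adjusted p = 0.056) were no longer called. The heat change under YAP/TAZ siRNA was −0.87 (adjusted p = 0.13) without replicate 1 of the heated and −0.79 (adjusted p = 0.12) without replicate 1 of the unheated YAP/TAZ siRNA cells, and it also lost its call without replicate 2 of the unheated YAP/TAZ siRNA cells, without any library of the unheated control siRNA cells, under median-of-ratios scaling (adjusted p = 0.056) or quantile normalization (0.052), with no filter (0.086) and where only the groups compared were fitted (0.086). The siRNA change without heat lost its call without replicate 1 (0.84, adjusted p = 0.10) or 2 of the unheated YAP/TAZ siRNA cells, without any library of the unheated control siRNA cells, and with no filter (adjusted p = 0.080).

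Short entries of the table are annotated inside both nuclear lncRNAs. Gm27505, an entry of 110 bases on the strand of Neat1 and inside its exon, had 31.9 and 28.0 FPKM in replicates 2 and 3 of the heated YAP/TAZ siRNA cells and 58.1 and 63.6 FPKM in replicates 1 and 2 of the unheated ones. With control siRNA it had 21.1 and 22.9 FPKM in the heated libraries and 29.1, 30.2 and 27.7 FPKM in unheated ones. In the other 2 libraries, replicate 1 of the heated and replicate 3 of the unheated YAP/TAZ siRNA cells, it had 0.17 and 0.13 FPKM, and these are the libraries in which Neat1 was highest in its group. With both libraries left out, an alternative chosen after the values were seen, the siRNA difference of Neat1 was 0.72 without heat (adjusted p = 3.4e-04) and 0.46 after heat (adjusted p = 0.0036). With the fragments of both entries added on the length of the shortest Neat1 transcript, also chosen after the values were seen, the difference after heat was 0.37 (adjusted p = 0.20). On the length of the longest transcript it was 0.61 (adjusted p = 0.0051). Gm27694, of 86 bases inside Malat1, varied from 0.0014 to 22.8 FPKM, and adding it to Malat1 on the length of its longest transcript changed no call of Malat1; no shorter length was tried.

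**Figure D3:**
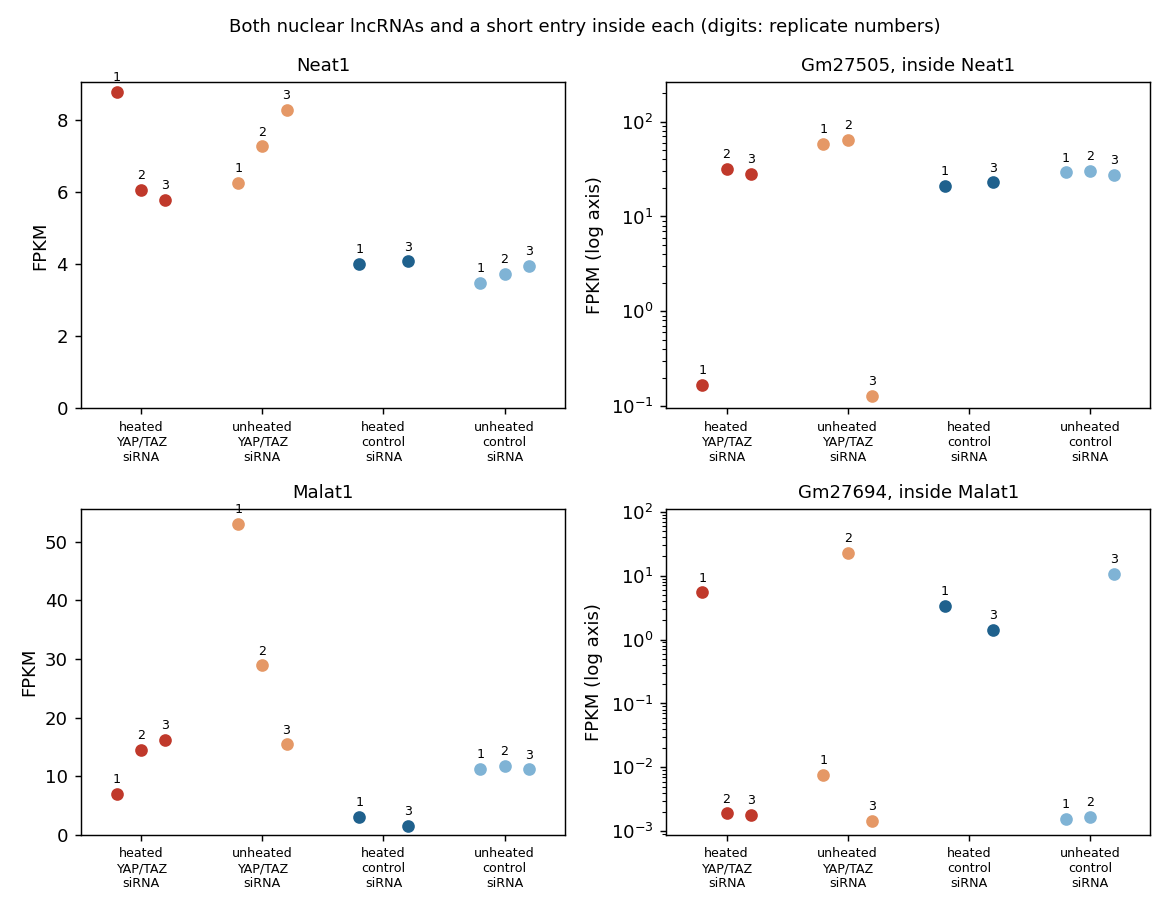
FPKM of Neat1 and Malat1 (left, axes from 0) and of the short entries Gm27505 and Gm27694 inside them (right, log axes), by group; points are libraries and digits their replicate numbers. Gm27505 is at 0.17 and 0.13 FPKM in 2 libraries and at 21.1 to 63.6 FPKM in the other 9.

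Genes for proteins of the bodies that these RNAs belong to were called in both directions. Of 16 paraspeckle proteins, YAP/TAZ siRNA without heat raised 1 and lowered 8 (median −0.18, beside 0.02 over all genes). These are 6.25% and 50%, beside 27.1% and 21.9% of all genes. Heat under control siRNA raised 2 and lowered 6 of the 16 (12.5% and 37.5%, near the 12.4% and 36.9% of all genes). Heat under control siRNA lowered the paraspeckle proteins Rbm14 (−0.53 ± 0.07, limma adjusted p = 1.6e-04) and Sfpq (−0.44 ± 0.06, adjusted p = 4.0e-04). Of 14 nuclear speckle proteins, heat lowered 6 and raised 2 under YAP/TAZ siRNA, where 31.7% of all genes were lower and 18.6% higher, and lowered 7 and raised 2 under control siRNA, where 36.9% were lower and 12.4% higher; a difference from those shares was not tested. The splicing factor Srsf5 fell with heat in both arms (−1.27 and −1.19). Clk1, a kinase of splicing factors, rose with heat under control siRNA (0.68). With YAP/TAZ siRNA it was higher without heat (0.54, limma adjusted p = 4.8e-05) and lower after heat (−0.46, adjusted p = 2.4e-04). These lists were drawn up with earlier results of these data known.

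Among the host genes, Snhg1 (ENSMUSG00000108414, chr19:8723475-8726443, plus strand), host of a cluster of box C/D snoRNAs, rose with heat and fell with YAP/TAZ siRNA. Its level was 13.2, 13.5 and 15.9 FPKM in heated YAP/TAZ siRNA libraries and 9.50, 10.3 and 10.3 FPKM in unheated ones. With control siRNA it was 19.2 and 18.3 FPKM after heat and 12.3, 12.4 and 13.4 FPKM without heat. The heated libraries lay above the unheated ones within each siRNA, with no overlap. The order of the 4 groups was heated control, heated YAP/TAZ, unheated control and unheated YAP/TAZ siRNA, of which heated YAP/TAZ and unheated control siRNA overlapped. The heat change was 0.46 ± 0.07 under YAP/TAZ siRNA (limma adjusted p = 8.9e-04) and 0.53 ± 0.08 under control siRNA (adjusted p = 5.7e-04), and their difference was −0.07 ± 0.11 (adjusted p = 0.66). YAP/TAZ siRNA lowered Snhg1 by −0.32 ± 0.07 without heat (adjusted p = 0.0056) and −0.38 ± 0.08 after heat (adjusted p = 0.0032).

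Snhg3 (ENSMUSG00000085241, chr4:132348014-132353686, minus strand), host of the box H/ACA snoRNAs Snora73a and Snora73b, was highest in cells with neither treatment. It had 4.04, 4.11 and 3.90 FPKM in heated YAP/TAZ siRNA libraries and 4.18, 3.93 and 5.40 FPKM in unheated ones. Under control siRNA it had 4.34 and 3.42 FPKM after heat and 7.32, 9.27 and 7.56 FPKM without heat. The unheated control siRNA libraries stood above all others, and the other 3 groups overlapped. The heat change was −0.12 ± 0.12 under YAP/TAZ siRNA (limma adjusted p = 0.41) and −0.89 ± 0.13 under control siRNA (adjusted p = 4.6e-04), and the difference of these responses was 0.77 ± 0.18 (adjusted p = 0.0090). YAP/TAZ siRNA lowered it by −0.72 ± 0.12 without heat (adjusted p = 8.2e-04), and after heat the difference was 0.05 ± 0.13 (adjusted p = 0.80).

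Snhg3 shares its region with other genes. Rcc1, the chromatin-bound exchange factor of Ran, starts 81 bases from Snhg3 on the same strand and runs over nearly all of it. Its level was 13.0 ± 0.41 FPKM in heated and 10.6 ± 0.41 FPKM in unheated YAP/TAZ siRNA cells (SD, n = 3 each). It was 14.7 ± 1.24 FPKM in heated control siRNA cells (SD, n = 2) and 18.8 ± 1.24 FPKM in unheated ones (SD, n = 3). Like Snhg3, Rcc1 was highest in unheated control siRNA cells, but heat under YAP/TAZ siRNA raised it by 0.27 ± 0.06 (limma adjusted p = 0.0060; 0.12, not called, with all libraries scaled to 1 total of FPKM). Its responses to heat differed by 0.61 ± 0.09 (adjusted p = 0.0011). Gm17300, a lincRNA entry of 1611 bases, lies inside Snhg3 on the other strand and was also highest in unheated control siRNA cells. It changed with heat by −0.70 ± 0.11 under YAP/TAZ siRNA and −0.98 ± 0.13 under control siRNA (limma adjusted p = 9.4e-04 and 1.9e-04). With YAP/TAZ siRNA without heat it changed by −0.36 ± 0.11 (adjusted p = 0.024). How the authors' counting divided fragments between Snhg3 and these genes was not tested.

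Snhg6 (ENSMUSG00000098234, lincRNA, chr1:9941959-9944118, minus strand), host of Snord87, rose with heat under YAP/TAZ siRNA. Its level was 32.2, 23.8 and 31.1 FPKM in heated YAP/TAZ siRNA libraries and 18.6, 14.2 and 20.0 FPKM in unheated ones. With control siRNA it was 21.0 and 23.98 FPKM after heat and 21.1, 19.9 and 22.1 FPKM without heat. Heated and unheated libraries were apart under YAP/TAZ siRNA and overlapped under control siRNA. The heat change was 0.69 ± 0.14 under YAP/TAZ siRNA (limma adjusted p = 0.0031) and 0.09 ± 0.16 under control siRNA (adjusted p = 0.66). The difference of the responses, 0.60 ± 0.21, had an adjusted p of 0.048 and lost its call when any library was left out other than replicate 2 of the heated or replicate 3 of the unheated YAP/TAZ siRNA cells (adjusted p from 0.014 to 0.17 over the 11 fits). After heat, the siRNA difference was 0.34 ± 0.16 (adjusted p = 0.088), which was called without replicate 2 of the heated YAP/TAZ siRNA cells (0.48, adjusted p = 0.020) or replicate 2 of the unheated ones (adjusted p = 0.045).

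Snhg12 (ENSMUSG00000086290, lincRNA, chr4:132308623-132311024, plus strand), host of Snora44, Snora61, Snora16a and Snord99, had 7.53, 7.12 and 6.18 FPKM in heated YAP/TAZ siRNA libraries and 4.39, 3.55 and 4.21 FPKM in unheated ones. Under control siRNA it had 5.48 and 5.63 FPKM after heat and 5.46, 3.14 and 4.92 FPKM without heat. It was highest in the heated YAP/TAZ siRNA cells, which overlapped no other group. Heat raised it by 0.65 ± 0.15 under YAP/TAZ siRNA (limma adjusted p = 0.0063), and the other comparisons were not called. Without the low replicate 2 of the unheated control siRNA cells, the difference of the heat responses (0.57, adjusted p = 0.015) and the siRNA changes without heat (−0.30, adjusted p = 0.040) and after heat (0.27, adjusted p = 0.045) were called.

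Zfas1 (ENSMUSG00000074578, chr2:167062934-167065862, plus strand), host of Snord12 and its relatives, moved within a narrow range. It had 14.2, 11.7 and 13.8 FPKM in heated YAP/TAZ siRNA libraries and 10.2, 9.25 and 10.7 FPKM in unheated ones. With control siRNA it had 12.2 and 12.3 FPKM after heat and 11.7, 11.04 and 11.8 FPKM without heat. Heat raised it by 0.36 ± 0.08 under YAP/TAZ siRNA (limma adjusted p = 0.0038), and gave 0.08 ± 0.08 under control siRNA (adjusted p = 0.46). Their difference, 0.28 ± 0.11, was not called (adjusted p = 0.081), though it was without replicate 2 of the heated YAP/TAZ siRNA cells (0.36, adjusted p = 0.015). The siRNA change without heat, −0.18 ± 0.08 (adjusted p = 0.080), was also called without that library (adjusted p = 0.032). It was called too under median-of-ratios scaling (−0.25, adjusted p = 0.032), 1 total of FPKM (adjusted p = 0.046) and with the replicate number as a covariate (adjusted p = 0.014).

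Gas5 and Snhg8 were called in no comparison. Gas5 (ENSMUSG00000053332, chr1:161034422-161038539, plus strand), a gene named for its accumulation in growth arrest, had 25.0, 16.3 and 23.7 FPKM in heated YAP/TAZ siRNA libraries and 20.8, 21.6 and 26.8 FPKM in unheated ones. In control siRNA cells it had 18.3 and 18.6 FPKM after heat and 24.8, 24.4 and 21.5 FPKM without heat. The heated control siRNA libraries lay below the unheated ones, but the difference of −0.34 ± 0.17 was not called (limma adjusted p = 0.13). It was called without replicate 2 of the heated YAP/TAZ siRNA cells (adjusted p = 0.028) and where only the groups compared were fitted (adjusted p = 0.014). Without that same replicate, the siRNA change after heat was also called (0.38, adjusted p = 0.023), where it was 0.20 ± 0.17 with all libraries (adjusted p = 0.35). Snhg8 (ENSMUSG00000104960, chr3:123507552-123508404, minus strand), host of Snora24, ranged from 7.16 to 9.31 FPKM in heated and from 3.99 to 8.12 FPKM in unheated YAP/TAZ siRNA libraries, and from 7.01 to 7.64 FPKM in heated and 6.39 to 8.81 FPKM in unheated control siRNA libraries. Its groups overlapped in all 4 comparisons of 2 groups. Its heat change under YAP/TAZ siRNA was 0.37 ± 0.21 (adjusted p = 0.17), and the difference of its heat responses was 0.45 ± 0.32 (adjusted p = 0.29).

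Some starts of the host RNAs show the pyrimidine tract for which part of this gene class is known. RefSeq promoter sequences of GRCm38.p6 were found for 7 of the 9 genes, with 2 starts for Gas5. The Gas5 start at chr1 161034601 is not printed below. It begins with G and so has no leading run of C and T. The first 15 bases of the RNA (as DNA, 5′ to 3′) are given for the hosts, with the leading run of C and T in capitals:
Gas5, start at chr1 161035166: CTTTCggagctgtgc
Snhg8: CTCTTTggctgcgat
Snhg12: TTTCTCgcttcatcc
Snhg1: CTCatttttccttgt
Snhg3: gacttccgggcgtta
Zfas1: gcggccgcaggtctc
A leading run of at least 5 C or T bases was present at 3 of the 8 starts (Gas5, Snhg8 and Snhg12) and at 4.44% of the 32851 starts in the RefSeq table. Of these, Snhg12 was called with heat under YAP/TAZ siRNA, as were Snhg1 and Zfas1, whose runs are shorter, and Gas5 and Snhg8 were not called. In the 300-base promoters, both strands were searched for heat shock elements written as GAANNTTC and TTCNNGAA. None of the 7 genes held either, against 9.04% and 9.60% of the 27025 genes in the table. The TEAD motif GGAATG, of the DNA-binding partners of YAP and TAZ, was present in 1 of the 7 (Snhg8, called in no comparison), against 16.6% of all genes. Such matches describe letters in these windows only.

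Of the snoRNA entries inside the host genes that could be tested, most were lower after heat. The annotation places 28 snoRNA entries of the table inside the 9 genes, and 11 of them passed the filter, so what follows holds for those 11 and not for all. They are 72 to 130 bases long, and reads of the mature snoRNA, of unspliced host RNA and of host transcripts that retain the intron cannot be told apart in a gene table. Heat under YAP/TAZ siRNA raised 1 of the 11 and lowered 7, where 18.6% of all genes were higher and 31.7% lower. Heat under control siRNA lowered 6 and raised 0 by limma, where 36.9% of all genes were lower and 12.4% higher. At an unadjusted p under 0.05, 0 of the 11 were higher under control siRNA. The median was −1.13 and −1.12, where all genes had −0.09 and −0.16. Of the 116 other snoRNA entries tested, heat raised 21 and lowered 23 under YAP/TAZ siRNA, and raised 19 and lowered 20 under control siRNA.

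The snoRNA entries of Gas5, Zfas1 and Snhg6 on which these counts rest are printed from the GENCODE M21 transcripts (GRCm38), 5′ to 3′, with capitals for the C box TGATGA near the start and the D box CTGA near the end, the protein-binding motifs of box C/D snoRNAs:
Gm22357, Gas5, chr1:161036057-161036139, plus strand: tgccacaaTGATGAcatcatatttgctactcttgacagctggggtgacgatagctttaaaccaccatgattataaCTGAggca
Mir5117, Gas5, chr1:161037356-161037439, plus strand, a snoRNA by its annotated type: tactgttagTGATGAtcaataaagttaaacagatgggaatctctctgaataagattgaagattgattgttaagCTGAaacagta
Snord80, Gas5, chr1:161037601-161037681, plus strand: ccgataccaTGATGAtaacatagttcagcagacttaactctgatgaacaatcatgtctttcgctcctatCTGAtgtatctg
Gm25789, Gas5, chr1:161038308-161038383, plus strand: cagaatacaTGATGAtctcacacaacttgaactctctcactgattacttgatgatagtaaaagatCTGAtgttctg
Snord12, Zfas1, chr2:167065276-167065365, plus strand: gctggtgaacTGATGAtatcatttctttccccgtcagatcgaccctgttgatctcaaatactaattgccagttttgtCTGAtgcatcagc
Snord87, Snhg6, chr1:9942463-9942549, minus strand: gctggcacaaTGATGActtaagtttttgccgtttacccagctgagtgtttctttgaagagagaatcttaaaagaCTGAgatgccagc

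Within Gas5, 3 of the 4 entries that passed the filter fell with heat and the fourth did not. Other snoRNA entries inside Gas5 stayed under the filter and were not tested. Among them, Snord78 had 0.01081, 0.8545 and 0.9855 FPKM in heated YAP/TAZ siRNA libraries, against 0.0798 to 0.0949 FPKM in unheated ones. With control siRNA it had 0.02915 to 0.0426 FPKM in heated libraries and 0.08996 to 0.107 FPKM in unheated ones. Gm22357 had 10.5, 14.2 and 20.0 FPKM in heated YAP/TAZ siRNA libraries and 34.9, 33.9 and 29.5 FPKM in unheated ones. With control siRNA it had 14.5 and 17.2 FPKM in heated libraries and 51.5, 59.8 and 55.3 FPKM in unheated ones. Heated libraries lay below unheated ones under both siRNAs, and the unheated YAP/TAZ siRNA cells lay between. The heat change of Gm22357 was −1.13 ± 0.18 under YAP/TAZ siRNA (limma adjusted p = 0.0011) and −1.75 ± 0.21 under control siRNA (adjusted p = 1.1e-04). The entry Snord80 fell by −0.89 ± 0.12 and −1.41 ± 0.13 (adjusted p = 3.9e-04 and 2.9e-05), and Mir5117 by −1.44 ± 0.31 and −1.89 ± 0.35 (adjusted p = 0.0042 and 0.0016). Gm25789, the entry nearest the 3′ end of Gas5, instead rose with heat under YAP/TAZ siRNA, to 2.33, 4.60 and 4.15 FPKM in heated libraries against 1.33, 0.92 and 1.57 FPKM in unheated ones (1.02 ± 0.19, adjusted p = 0.0020). Summed over the 4 entries, the level was 28.8 ± 6.21 FPKM in heated and 58.3 ± 2.91 FPKM in unheated YAP/TAZ siRNA cells (SD, n = 3 each), and 29.9 ± 3.83 FPKM in heated (SD, n = 2) and 98.0 ± 3.30 FPKM in unheated control siRNA cells (SD, n = 3). The Gas5 gene entry over the same libraries was 21.7 ± 4.72, 23.0 ± 3.25, 18.5 ± 0.22 and 23.6 ± 1.79 FPKM.

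The entries Snord12, Snord87 and Snora44 fell with heat, while their hosts Zfas1, Snhg6 and Snhg12 rose under YAP/TAZ siRNA and were not called under control siRNA. Snord12 in Zfas1 had 5.43, 4.19 and 5.44 FPKM in heated YAP/TAZ siRNA libraries against 13.1, 13.8 and 13.2 FPKM in unheated ones, and, with control siRNA, 9.30 and 7.14 FPKM in heated libraries against 20.6, 18.8 and 17.5 FPKM in unheated ones. Its heat changes were −1.26 ± 0.11 (limma adjusted p = 4.1e-05) and −1.12 ± 0.12 (adjusted p = 6.6e-05). Snord87 in Snhg6 changed by −1.56 ± 0.24 under YAP/TAZ siRNA (adjusted p = 8.3e-04) and −1.51 ± 0.27 under control siRNA (adjusted p = 0.0015). Its heated libraries lay low and apart, at 0.019, 1.01 and 0.15 FPKM with YAP/TAZ siRNA and 1.23 and 0.53 FPKM with control siRNA. Its unheated ones had 3.48, 2.81 and 2.55 FPKM and 3.88, 4.865 and 4.07 FPKM. Snora44 in Snhg12, a box H/ACA snoRNA, changed by −1.10 ± 0.15 under YAP/TAZ siRNA (adjusted p = 4.0e-04) and −1.70 ± 0.17 under control siRNA (adjusted p = 3.4e-05). The seventh entry lowered by heat under YAP/TAZ siRNA was Gm25894 in Snhg1 (−1.91 ± 0.68, adjusted p = 0.041), which lost its call without replicate 1 or 2 of the heated or any library of the unheated YAP/TAZ siRNA cells, and under median-of-ratios or quantile scaling, a pseudocount of 0.1 or no filter (adjusted p from 0.053 to 0.093). The difference between an entry and its host was not tested, and an entry and its host can share fragments.

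**Figure D4:**
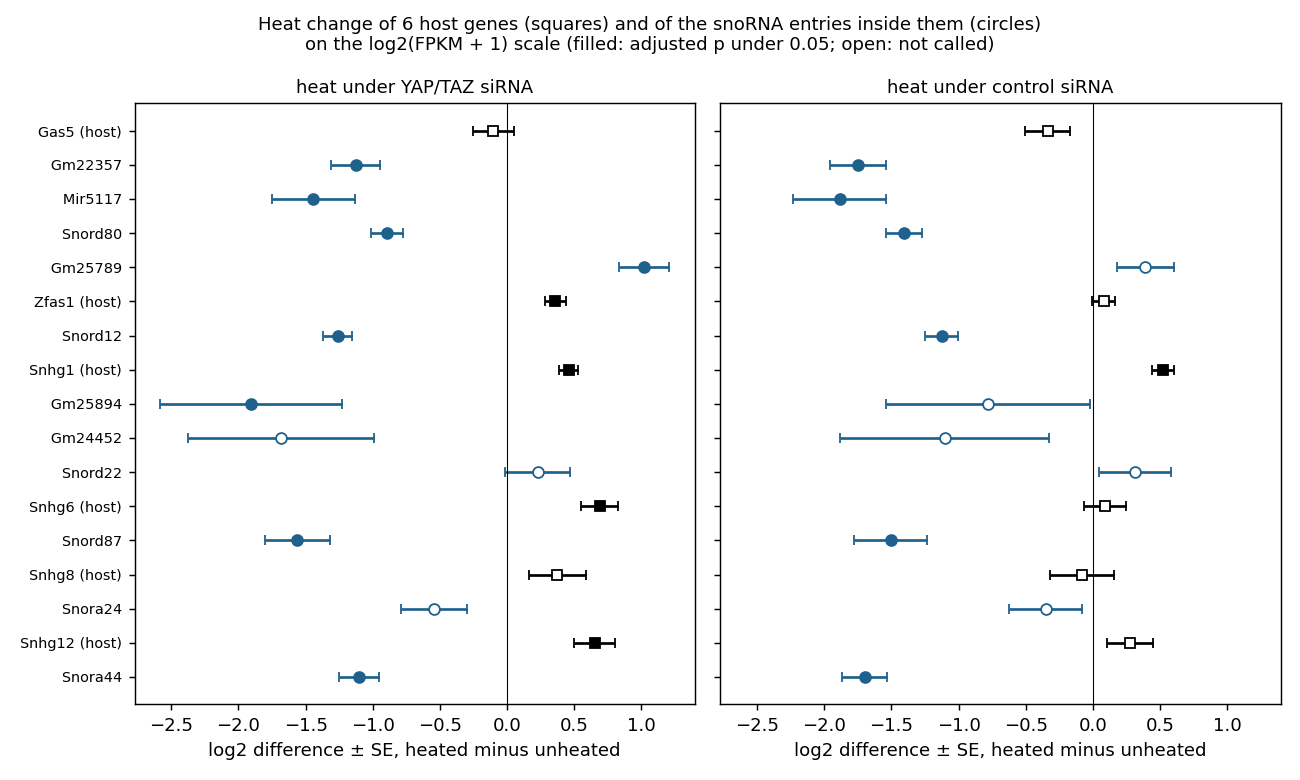
Log2 difference ± SE, heated minus unheated (horizontal axis, log2(FPKM + 1) scale), for 6 host genes (squares) and the 11 tested snoRNA entries inside them (circles), under YAP/TAZ siRNA (left) and control siRNA (right); filled symbols have an adjusted p under 0.05. The entries Gm22357, Mir5117, Snord80, Snord12, Snord87 and Snora44 lie at −0.89 or lower in both panels, while the hosts lie between −0.34 and 0.69.

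YAP/TAZ siRNA without heat lowered 5 of the 11 entries by limma and raised 0, where 21.9% of all genes were lower and 27.1% higher. At an unadjusted p under 0.05, 0 of the 11 were higher. Called lower were Gm22357 (−0.74), Mir5117 (−0.83), Snord80 (−0.66), Snord12 (−0.47) and Snora44 (−0.70), where the hosts Gas5, Zfas1 and Snhg12 were not called. Of the 116 other snoRNA entries, 30 fell and 1 rose (25.9% and 0.86%). The call of Mir5117 (adjusted p = 0.049) was lost without any 1 library other than replicate 1 or 2 of the heated or replicate 3 of the unheated YAP/TAZ siRNA cells, and under a pseudocount of 0.1, no filter or quantile normalization (adjusted p from 0.054 to 0.11). After heat, the siRNAs differed for 3 of the 11 entries, 1 higher (Gm25789, not called without replicate 2 or 3 of the heated YAP/TAZ siRNA cells or either heated control siRNA library, under any of the 3 other scalings, with no filter, or with only the groups compared) and 2 lower (Snord12 among them, −0.61 ± 0.12, adjusted p = 0.0024). There 36.3% of all genes were higher and 17.9% lower.

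The 8 core proteins of snoRNA particles (snoRNPs) were all lower with YAP/TAZ siRNA without heat (median −0.95, beside 0.02 over all genes), among them the pseudouridine synthase Dkc1 (−1.01 ± 0.05, limma adjusted p = 3.9e-07), the methyltransferase fibrillarin (Fbl, −0.99 ± 0.07, adjusted p = 6.4e-06), Nop58 (−0.92) and Snu13 (−0.75). Heat under YAP/TAZ siRNA raised 6 of the 8, where 18.6% of all genes were higher. Heat under control siRNA lowered 6, where 36.9% of all genes were lower. The difference of the responses was called positive for all 8, such as Gar1 (1.18, adjusted p = 2.3e-05), where 24.6% of all genes were. Of 10 snoRNP assembly factors, YAP/TAZ siRNA without heat lowered 9, where 21.9% of all genes were lower. Heat under YAP/TAZ siRNA raised 6 and lowered 1, beside 18.6% and 31.7% of all genes. Heat under control siRNA raised 1 and lowered 7, beside 12.4% and 36.9% of all genes. The helicase-like assembly factors Ruvbl1 (−1.03) and Ruvbl2 (−0.81) and the nucleolar phosphoprotein Nolc1 (−0.99) fell with YAP/TAZ siRNA without heat.

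Other host genes were read in the same way. Of 29 protein-coding snoRNA host genes, mostly ribosomal protein and translation factor genes, heat under YAP/TAZ siRNA raised 22 and lowered 1 (median 0.68). There 18.6% of all genes were higher and 31.7% lower. Heat under control siRNA raised 8 and lowered 4 (median 0.19), where 12.4% of all genes were higher and 36.9% lower. The difference of the responses was positive for 16 of them, where 24.6% of all genes were called positive. Hspa8, the constitutive Hsp70 chaperone, rose by 0.68 and the ribosomal protein gene Rps2 by 0.87 with heat under YAP/TAZ siRNA. Ribosomal protein genes share sequence with their pseudogenes, which makes their values uncertain. Of 14 further lncRNA hosts, 8 were tested. YAP/TAZ siRNA without heat lowered 6 of the 8, where 21.9% of all genes were lower, among them Snhg5 (−0.74), Dancr (−0.79) and Snhg16 (−0.58). Heat raised 3 and lowered 2 of the 8 under YAP/TAZ siRNA (37.5% and 25%, beside 18.6% and 31.7% of all genes). Under control siRNA it raised 1 and lowered 3 (12.5% and 37.5%, near the 12.4% and 36.9% of all genes). The lower ones were Snhg5 (−0.93), Snhg17 (−0.67) and Dancr (−0.67). Snhg15 rose with heat in both arms, by 0.41 ± 0.08 under YAP/TAZ siRNA (limma adjusted p = 0.0029) and 0.66 ± 0.09 under control siRNA (adjusted p = 2.9e-04), and Snhg5, like Snhg3, had a heat response that was more positive under YAP/TAZ siRNA (0.94, adjusted p = 2.4e-04). Of 12 factors of nonsense-mediated decay, heat under YAP/TAZ siRNA raised 3 and lowered 5 (25% and 41.7%, beside 18.6% and 31.7% of all genes). Heat under control siRNA raised 1 and lowered 4 (8.33% and 33.3%, near the 12.4% and 36.9% of all genes). Upf1, the central helicase of that pathway, fell in both arms (−0.42 and −0.48).

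**Figure D5:**
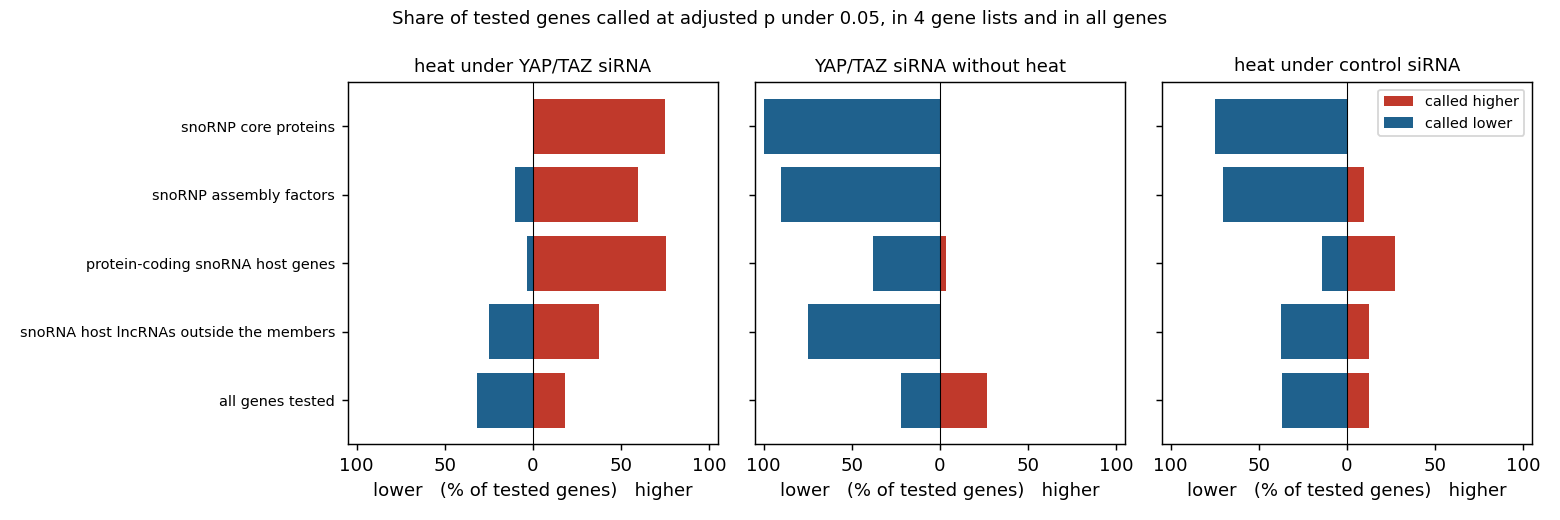
Share of the tested genes of 4 lists, and of all genes tested, that were called higher (right of 0) or lower (left of 0) in 3 comparisons (horizontal axis, percent). All 8 snoRNP core proteins are called lower with YAP/TAZ siRNA without heat, where 21.9% of all genes are.

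Of 9 genes next to the members, 8 were tested. Heat under YAP/TAZ siRNA raised 4 and lowered 4 of them, where 18.6% of all genes were higher and 31.7% lower. Heat under control siRNA raised 2 and lowered 3, where 12.4% of all genes were higher and 36.9% lower. Slc3a2, the heavy chain of amino acid transporters, starts 106 bases from Snhg1 on the other strand. Its changes were small, with 0.19 ± 0.04 for heat under YAP/TAZ siRNA, 0.22 ± 0.04 for heat under control siRNA and 0.18 ± 0.04 for YAP/TAZ siRNA without heat (limma adjusted p = 0.0037, 0.0026 and 0.0040), the last opposite in sign to Snhg1; under quantile normalization the first turned to −0.09, with 1 total of FPKM it was 0.02 (not called), and under median-of-ratios scaling the last was 0.11 (not called). Znfx1, whose start overlaps that of Zfas1 on the other strand, had 14.4 ± 1.38 FPKM in heated and 19.3 ± 1.32 FPKM in unheated YAP/TAZ siRNA cells (SD, n = 3 each), and 17.5 ± 1.44 FPKM in heated (SD, n = 2) and 9.08 ± 0.59 FPKM in unheated control siRNA cells (SD, n = 3). Its heat response differed between the siRNAs by −1.28 ± 0.12 (adjusted p = 8.9e-05), where that of Zfas1 was positive and not called. The overlap spans 82 bases, and strand-specific counting is not stated.

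The genes most like 4 of the members over the 11 libraries were named by Pearson r of log2(FPKM + 1) among 10128 genes, as a description, since all values share the libraries and their groups. Nearest to Neat1 were Naa60 (r = 0.976), Ldhd (0.972) and Mogat1 (0.966), and 208 genes reached 0.9. Nearest to Malat1 were Wdr60 (0.968), Tep1 (0.965) and Nrp1 (0.961), and 182 genes reached 0.9. No gene reached 0.9 for Gas5 (Suz12 was highest at 0.871), and 1 did for Snhg12 (Idh3b, 0.904). Among the 9 themselves, Zfas1 and Snhg6 were most alike (r = 0.968), while Malat1 and Snhg1 ran in opposite directions (r = −0.849).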

How the data were processed

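RNA was sequenced from 11 libraries of B16-OVA cells. The authors deposited FPKM per gene in 1 table; per the submitters' processing notes Trimmomatic 0.36, HISAT2, SAMtools, StringTie and DESeq2 were used on GRCm38. Sources used here give neither the RNA selection nor the strandedness or annotation release. No counts came with the values, and the quantifier divides fragments between overlapping entries, so count models were not used. Positions, snoRNA entries and sequences came from GENCODE M21, and promoters from RefSeq.

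The 12626 genes that reached 1 FPKM in 2 or more libraries were tested with limma 3.58.1 in R 4.3.3 on log2(FPKM + 1), with 11 libraries, 4 group means, 7 residual degrees of freedom and a trended empirical Bayes variance. P-values were adjusted (Benjamini-Hochberg) over all tested genes within each of 5 comparisons. The procedure was tested on simulated data. Named genes were the 9 members, the treatment checks, up to 4 called genes per list and comparison with the smallest p, snoRNA entries inside members, and the 3 genes most like 4 members. The members and lists were chosen with earlier results of these data known. Over all tested genes, deviations of same-numbered libraries correlated from −0.11 to 0.13, and the main fit did not pair them. This does not exclude a shared replicate effect in single genes. For Zfas1, Snhg6 and Snhg8, replicate 2 was the lowest library in every group that holds one, and heated control siRNA cells have none. Alternatives were another pseudocount, filter, scaling, model or sample set.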

Additional observations from a re-analysis of the deposited data

Results flagged for a closer look

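The heat response of Snhg3 differed between the siRNAs: it was −0.12 under YAP/TAZ siRNA and −0.89 under control siRNA, a difference of 0.77 ± 0.18 (limma interaction, adjusted p = 0.0090). Heated and unheated YAP/TAZ siRNA libraries overlapped, while both heated control siRNA libraries lay below all 3 unheated ones. The heat response of Snhg6 also differed, with 0.69 under YAP/TAZ siRNA and 0.09 under control siRNA, a difference of 0.60 ± 0.21 (adjusted p = 0.048). The Snhg6 call was lost with no filter and under each of the 3 other scalings (adjusted p from 0.058 to 0.12). With 1 library left out it was kept only without replicate 2 of the heated or replicate 3 of the unheated YAP/TAZ siRNA cells. The entry Snord80 inside Gas5 fell less with heat under YAP/TAZ siRNA (−0.89) than under control siRNA (−1.41), a difference of 0.51 ± 0.18 (adjusted p = 0.0498). That call was lost with a pseudocount of 0.1, with no filter and under each of the 3 other scalings (adjusted p from 0.061 to 0.13). With 1 library left out it was kept only without replicate 2 of the heated or replicate 3 of the unheated YAP/TAZ siRNA cells, or replicate 3 of the unheated control siRNA cells.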

How the results depend on the processing

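The replicate block (the replicate number as a covariate) moved the members called to 4 for the difference of the heat responses, against 2. For YAP/TAZ siRNA after heat it moved them to 5, against 3. The labels do not say what the shared numbers stand for. Under it Snhg8 was called for heat under YAP/TAZ siRNA (0.37, adjusted p = 0.026) and for the difference (0.62, 0.025), while Malat1 lost its calls for heat under YAP/TAZ siRNA (0.058) and YAP/TAZ siRNA without heat (0.052), Gm25894 that for heat under YAP/TAZ siRNA (0.070) and Snord80 that for the difference (0.056). Members called for the difference fell to 1 with 1 total of FPKM, median-of-ratios scaling, quantile normalization, no filter, or both libraries with Gm27505 near 0 left out, since Snhg6 lost its call in each. Under quantile normalization 5 members were called for heat under control siRNA, against 3, with Zfas1 (0.25, adjusted p = 0.045) and Snhg12 (0.47, adjusted p = 0.043) added. Leaving out 1 library gave 1 to 3 members called for the difference and 2 to 5 for YAP/TAZ siRNA after heat, and 2982 to 4967 genes called in all for the difference, the lowest without heated control siRNA replicate 1 (4791 in full). 

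Signs turned only for values near 0 that were not called, apart from those of Slc3a2. Under quantile normalization these were Neat1 heat under YAP/TAZ siRNA (0.059), Gas5 YAP/TAZ siRNA without heat (0.0050), Snhg3 heat under YAP/TAZ siRNA (0.044) and YAP/TAZ siRNA after heat (−0.059), Snhg8 heat under control siRNA (0.11), the Snord87 difference (0.049) and Slc3a2 (−0.089 heat under YAP/TAZ siRNA, −0.0075 after heat). Under median-of-ratios scaling they were Neat1 heat under YAP/TAZ siRNA (0.0056), Zfas1 (−0.029) and Snhg3 (−0.069) YAP/TAZ siRNA after heat, and Snhg8 heat under control siRNA (0.070). Under 1 total of FPKM it was Snhg3 after heat (−0.024), under the block Snhg6 heat under control siRNA (−0.012), with the Gm27505 sum on the shortest transcript Neat1 heat under control siRNA (−0.13), and with both libraries out the Snhg1 difference (6.3e-04), Gm22357 after heat (0.088) and the Snord87 difference (0.066). The cause was not tested. Leaving out 1 library moved these values over a range: Neat1 (−0.25 to 0.015) and Gas5 (−0.21 to 0.085) heat under YAP/TAZ siRNA, Gas5 (−0.15 to 0.028) and Snhg12 (−0.30 to 0.023) YAP/TAZ siRNA without heat, Snhg3 after heat (−0.091 to 0.18), Snhg6 (−4.1e-04 to 0.18) and Snhg8 (−0.20 to 5.3e-04) heat under control siRNA, Gm22357 (−0.35 to 0.088) and Snora44 (−0.28 to 0.081) after heat, Gm25789 without heat (−0.11 to 0.098), and the differences of Snord12 (−0.31 to 0.031) and Snord87 (−0.35 to 0.22). Of the 28 short snoRNA entries, 17 stayed under the filter.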

Other observations

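Of 14 other lncRNAs, 6 passed the filter on low values. YAP/TAZ siRNA without heat raised 5 of them and lowered 1, where 27.1% of all genes were higher and 21.9% lower. Norad, a cytoplasmic lncRNA that binds Pumilio proteins, rose by 0.47 with YAP/TAZ siRNA without heat (limma adjusted p = 1.4e-04) and by 0.51 with heat under control siRNA (adjusted p = 1.9e-04), and its heat response differed between the siRNAs by −0.51 (adjusted p = 0.0021). Mir17hg, the host of the oncogenic miR-17 cluster, was lower with YAP/TAZ siRNA both without heat (−0.82, adjusted p = 3.9e-05) and after heat (−1.68, adjusted p = 1.2e-06). It was also lower with heat, by −1.44 under YAP/TAZ siRNA (adjusted p = 4.7e-06) and −0.57 under control siRNA (adjusted p = 7.3e-04). Trp53cor1, a lncRNA induced by p53, rose with YAP/TAZ siRNA without heat (0.72, adjusted p = 6.9e-05), and its heat response differed between the siRNAs by −0.79 (adjusted p = 0.0010). Over all 371 lincRNA, antisense and processed_transcript entries tested, YAP/TAZ siRNA without heat raised 122 and lowered 35. These are 32.9% and 9.43%, median 0.18, beside 27.1% and 21.9%, median 0.02, over all genes. Heat under YAP/TAZ siRNA raised 50 and lowered 128 (13.5% and 34.5%, median −0.16, beside 18.6% and 31.7%, median −0.09, over all genes).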
